A study of Mus musculus with 36 samples.

Results

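Pou5f1, Sox2, Klf4 and Myc encode OCT4, SOX2, KLF4 and c-MYC, the transcription factors that together reprogram fibroblasts to induced pluripotent stem cells (iPSCs). Their counts were followed in RNA-seq of wild type (WT) and Zfp266 knockout (KO) mouse cells, before, during and after reprogramming. The rows were chosen by gene name, and all 4 names matched a single row each of the 21442 genes in the count table. In the MEFs, and in the cells reprogrammed from them, a doxycycline-inducible cassette carries a further copy of all 4 coding sequences. The embryonic stem cell (ESC) line from which these MEFs were made carries the cassette too. Reads from the cassette and from the endogenous genes were counted in the same row, so every value below is their sum.

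The 36 libraries form 12 groups of 3, from 6 stages and both genotypes. All MEF and reprogramming samples came from mouse embryonic fibroblasts (MEFs) that express Cas9 and carry a Nanog-GFP reporter and the MKOS-ires-mOrange cassette, in which the 4 factors and the mOrange marker are made from a common transcript. MEFs were passage 2 cells from E12.5 chimeric embryos, labelled as strain 129. The chimeras were made by aggregating the ESC line with embryos collected from B6CBAF1 females. The MEFs received a lentivirus with a non-targeting (WT) or a Zfp266 (KO) guide RNA. The KO libraries of these stages are therefore edited populations and not clones. MEF samples were harvested 96 h after transduction without doxycycline. No sort for mOrange is stated for them, so host cells without the cassette may be included. For reprogramming, cells transduced 24 h earlier were given ESC medium with 300 ng/ml doxycycline and 10 µg/ml vitamin C, in both genotypes, and 100000 cells that expressed mOrange were sorted at day 3, day 5 or day 7. They had been seeded among an excess of WT MEFs of strain 129 without the cassette. WT and KO iPSCs, also labelled strain 129, were 3 clones each, sorted individually at day 15 and grown without doxycycline under puromycin, which acts through the Nanog reporter. ESCs were 3 samples of each genotype. KO ESCs were made as clones from a parental line (Clone J) with a Zfp266 guide plasmid. The paper does not state that the WT samples are all Clone J or that the KO samples are different clones. If the WT ESC samples are a single line, they hold no variation between clones. No strain or doxycycline is given for the ESCs in the labels.

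OCT4 and SOX2 bind DNA as partners at a composite site and maintain the pluripotent state, in which both genes are highly transcribed. KLF4 is a zinc finger activator that is made in fibroblasts, keratinocytes and ESCs, and c-MYC with its partner MAX raises the expression of genes for ribosome production and growth. During reprogramming the cassette supplies the factors first, the fibroblast programme is shut down, and the endogenous Pou5f1 and Sox2 are turned on later. An iPSC no longer depends on the cassette.

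The promoters of the endogenous genes are shown because the cassette is driven by doxycycline and these sequences are not part of it. The windows run from 250 bases before to 50 bases after a RefSeq gene start (GRCm38.p6), on the coding strand. Capitals mark matches to 4 short motifs of the kind these factors bind, searched on both strands: the octamer ATGCAAAT, the SOX core ACAATG, the KLF box CCACCC and the E-box CACGTG.
Pou5f1, chr17:35505782-35506081, + strand: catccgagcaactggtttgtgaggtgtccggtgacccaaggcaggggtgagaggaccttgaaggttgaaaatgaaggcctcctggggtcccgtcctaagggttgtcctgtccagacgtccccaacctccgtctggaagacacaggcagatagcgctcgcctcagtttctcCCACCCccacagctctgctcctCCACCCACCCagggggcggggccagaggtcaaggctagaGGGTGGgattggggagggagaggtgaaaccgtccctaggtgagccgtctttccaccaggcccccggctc
Sox2, chr3:34649745-34650044, + strand: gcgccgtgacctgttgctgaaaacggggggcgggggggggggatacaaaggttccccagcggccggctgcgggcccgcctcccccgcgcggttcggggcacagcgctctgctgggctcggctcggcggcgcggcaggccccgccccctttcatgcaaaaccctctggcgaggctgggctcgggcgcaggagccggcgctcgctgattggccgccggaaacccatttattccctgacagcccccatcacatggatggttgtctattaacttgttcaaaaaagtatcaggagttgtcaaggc
Klf4, chr4:55532426-55532725, - strand: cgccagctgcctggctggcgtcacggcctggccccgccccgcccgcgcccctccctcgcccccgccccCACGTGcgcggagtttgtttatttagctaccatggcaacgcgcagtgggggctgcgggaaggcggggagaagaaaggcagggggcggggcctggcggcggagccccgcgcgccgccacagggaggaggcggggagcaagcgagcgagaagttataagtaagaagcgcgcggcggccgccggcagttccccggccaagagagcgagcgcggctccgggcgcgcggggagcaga
The Pou5f1 window shown held 4 matches to CCACCC, of which a pair share bases, and none to the other motifs. A further Pou5f1 window in the table, chr17:35508557-35508856, lies inside the gene and held 1 ACAATG and none of the others. The Klf4 window held 1 CACGTG, and the Sox2 window held none of the 4 motifs. Of the 32851 promoter windows in the table, 31.5% held CCACCC, 12.6% ACAATG, 7.15% CACGTG and 1.74% ATGCAAAT. These are matches of letters and were not tested for binding. The Pou5f1 gene (ENSMUSG00000024406) spans 35506018 to 35510772 on the plus strand of chromosome 17 in GRCm38, with 6 merged exons. Sox2 (ENSMUSG00000074637) is a gene with 1 exon on the plus strand of chromosome 3, from 34650405 to 34652461, inside the span of the long non-coding RNA gene Sox2ot. Klf4 (ENSMUSG00000003032) lies on the minus strand of chromosome 4, from 55527143 to 55532466, with 5 merged exons. Myc (ENSMUSG00000022346) lies on the plus strand of chromosome 15, from 61985391 to 61990374, with 4 merged exons. In the annotation only the antisense gene Gm19553 shared a stretch of 75 bases or more at 95% identity with a member, through 317 exon bases that it overlaps in Pou5f1.

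Libraries held 19224103 to 39610939 counts. The Zfp266 transcript was present in every library and its level did not check the genotype labels, with 2828 to 3096 normalised counts in WT MEFs and 3072 to 3293 in KO MEFs. On the log2 scale it was 0.32 higher in the KO at day 3 (DESeq2 adjusted p = 0.00883). In iPSCs it was 0.39 lower in the KO (DESeq2 adjusted p = 9.95e-06), and at the other stages it did not pass. An indel made by Cas9 need not lower the transcript. The stage labels were checked against marker genes. Summed counts of 12 fibroblast markers were at least 455152 in MEFs and at most 795 in iPSC and ESC libraries, while those of 8 pluripotency markers were at most 31 in MEFs and at least 102431 in iPSCs and ESCs. MEF KO replicate 3 stood apart from the other MEF libraries, with a summed neural marker count, mostly Nes, of 2876 against 9586 to 10395. Results that rest on it are given with and without it, or with a range over single libraries left out.

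Before doxycycline all 4 factors were low, with Klf4 and Myc above Sox2 and Pou5f1. Normalised counts (counts divided by a size factor for each library, so comparable between libraries) of Pou5f1 were 33, 51 and 27 in WT MEFs and 33, 26 and 8 in KO MEFs. Sox2 had 155, 158 and 192 in WT and 187, 190 and 66 in KO. For Klf4 the WT values were 1407, 1301 and 1301 and the KO values 1344, 1438 and 1132. Myc had 913, 777 and 836 in WT and 858, 933 and 507 in KO. The groups overlap for every factor, and the low KO value is replicate 3 in all of them. None of the 4 passed the test of KO over WT (edgeR also 0, 1 at an unadjusted p under 0.05), in a comparison where 0.0428% of all genes tested passed. The log2 fold change (log2FC) of Pou5f1, with the fewest reads, was -0.68 ± 0.27 (SE, DESeq2 adjusted p = 0.509). Without replicate 3 of the KO the log2FC of Pou5f1 was -0.28, and over all single libraries left out it ranged from -1.03 to -0.28. In the same fit without replicate 3 the log2FC of Sox2 moved from -0.20 to 0.15 and that of Myc from -0.14 to 0.09, and that of Klf4 from -0.03 to 0.06.

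Levels were compared between genes per kb of merged exons, a length that applies to endogenous transcripts. It does not apply to cassette reads, since the cassette holds only coding sequence. Per kb, WT MEFs had 438 ± 20.1 normalised counts of Klf4 (mean ± SD, n = 3), 310 ± 25.1 of Myc, 81.7 ± 10.1 of Sox2 and 16.5 ± 5.76 of Pou5f1. Each step in that order was larger than the spread of the libraries. Klf4 made up 51.8% and Pou5f1 1.96% of the 4 levels per kb.

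At day 3 every factor was raised in every library, in both genotypes. Pou5f1 reached 39976, 42926 and 43983 normalised counts in WT and 40927, 41213 and 46266 in KO, 1173-fold and 1897-fold over MEFs. Sox2 reached 23821, 23506 and 24747 in WT and 21968, 19723 and 21459 in KO, 142-fold and 143-fold over MEFs. Klf4 had 35784, 36192 and 37737 in WT and 34863, 32333 and 33514 in KO, a rise of 27.4-fold and 25.7-fold from its higher starting level. Myc had 30060, 30026 and 31866 in WT and 29320, 27943 and 28255 in KO, rises of 36.4-fold and 37.2-fold. On the log2 scale the KO rises were 10.9 for Pou5f1, 7.16 for Sox2, 4.69 for Klf4 and 5.22 for Myc. With single libraries left out, MEF KO replicate 3 among them, these ranged from 10.5 to 11.2, 6.80 to 7.39, 4.59 to 4.76 and 4.99 to 5.38. All 8 changes passed (DESeq2, largest adjusted p = 1.41e-142), where 70.9% of genes in WT and 71.4% in KO did. The 4 genes together took 0.432% of all counts in WT at day 3 and 0.00717% in WT MEFs. The KO values of Sox2, Klf4 and Myc lay below the WT values without overlap, and those of Pou5f1 overlapped. The share of all genes without such overlap was not counted, and these genes share the cassette transcript. The fitted KO effects were small, with log2FC of 0.02 for Pou5f1, -0.19 for Sox2, -0.12 for Klf4 and -0.10 for Myc and an SE of 0.11 to 0.19. None passed (edgeR 0, unadjusted p under 0.05 for 0), against 0.493% of genes, and the difference between the KO effects at day 3 and in MEFs passed for none of the 4 either (edgeR 0, unadjusted p under 0.05 for 1, background 0.112%).

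**Figure D1:**
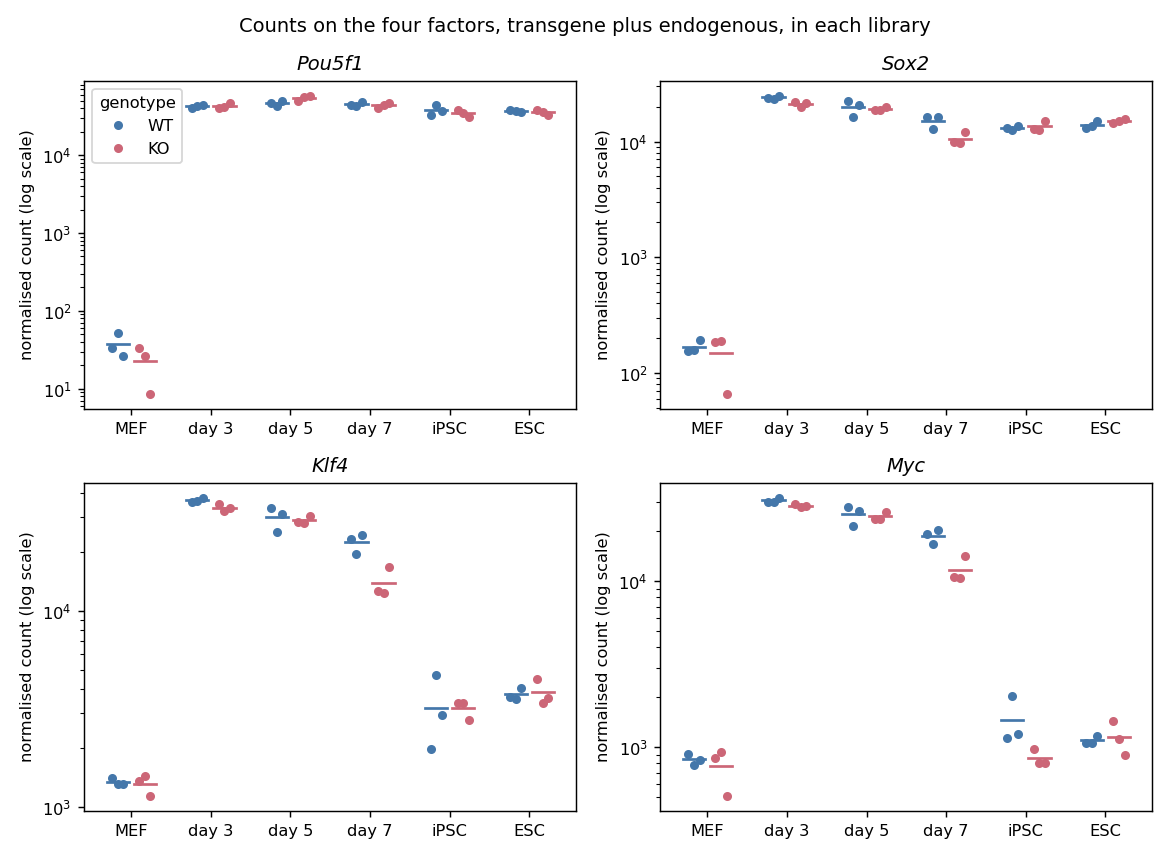
Normalised counts of Pou5f1, Sox2, Klf4 and Myc (log axis) in each of the 36 libraries by stage, WT in blue and KO in red, with a bar at the mean of 3. All 4 genes rise from MEF to day 3, and Klf4 and Myc return towards their MEF levels in iPSCs and ESCs while Pou5f1 and Sox2 do not.

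At day 3 the 3 factors other than Pou5f1 had nearly the same level per kb of merged exons. In WT these were 11995 ± 338 for Klf4, 11679 ± 313 for Sox2 and 11281 ± 387 for Myc (mean ± SD, n = 3), while Pou5f1 had 18815 ± 924. The gaps between Klf4 and Sox2 and between Sox2 and Myc were no larger than about the spread of the libraries. Per kb of coding sequence, the only part of each gene in the cassette, Klf4 and Sox2 remained close at 25239 and 25104 normalised counts and Myc was lower at 22504.

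From day 3 to day 7 Sox2, Klf4 and Myc declined together in WT cells and Pou5f1 did not. Pou5f1 had 47013, 43229 and 49555 normalised counts at day 5 and 43534, 43216 and 48060 at day 7, overlapping its day 3 values. Sox2 had 22250, 16283 and 20687 at day 5 and 16152, 12926 and 16167 at day 7. Klf4 had 33320, 25344 and 31207, then 23313, 19396 and 24234. Myc had 27985, 21416 and 26465, then 19366, 16649 and 20383. For these 3 genes, which share the cassette transcript, every day 7 library lay below every day 3 library. How many of all genes separate in this way was not counted. WT replicate 2 was the lowest library of the 3 genes at both day 5 and day 7.

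Single steps of the WT decline did not pass. From day 3 to day 5 the log2FC was -0.28 for Sox2, -0.29 for Klf4 and -0.28 for Myc, and 0.14 for Pou5f1 (lowest adjusted p = 0.217, 0 of 4 passed, edgeR 0, unadjusted p under 0.05 for 0, background 25.1%). Without WT replicate 2 of day 5 these values were -0.16, -0.18 and -0.17 for Sox2, Klf4 and Myc, and without WT replicate 3 of day 5 that of Pou5f1 was 0.093. From day 5 to day 7 it was -0.39, -0.42 and -0.43 for Sox2, Klf4 and Myc and -0.05 for Pou5f1 (lowest adjusted p = 0.0699, 0 of 4 passed, edgeR 0, unadjusted p under 0.05 for 3, background 24.1%). Without WT replicate 2 of day 5 the later step of Sox2 and Klf4 passed (-0.51 and -0.53, adjusted p = 0.0231 and 0.0414). A fit of only the 6 libraries compared put Sox2, Klf4 and Myc past the threshold in both steps. The direct contrast of day 7 with day 3 was added after the values were seen. In it Sox2 fell by 0.67 ± 0.17 on the log2 scale (SE, adjusted p = 0.000217), Klf4 by 0.71 ± 0.18 (adjusted p = 0.000375) and Myc by 0.71 ± 0.19 (adjusted p = 0.000806), where 42.9% of genes passed. Pou5f1 differed by 0.09 ± 0.11 (adjusted p = 0.543).

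In KO cells all 4 factors fell between day 5 and day 7. At day 5 Pou5f1 had 49363, 55508 and 57730 normalised counts, a rise of 0.34 ± 0.11 (log2FC ± SE) from day 3 (adjusted p = 0.00624) that passed while the other 3 genes, with log2FC of -0.22 to -0.14, did not (background 29.3%). A fit of only the 6 libraries compared put the earlier step of Klf4 and Myc past the threshold as well (both -0.21, adjusted p = 0.000794 and 0.00096). Without KO replicate 3 of day 5, the highest library for Pou5f1, the adjusted p of the Pou5f1 rise was 0.0554. At day 7 Pou5f1 was back at 39969, 44743 and 46890. That fall of 0.31 ± 0.11 passed (adjusted p = 0.0114), but not without KO replicate 3 of day 5 or KO replicate 1 of day 7, with adjusted p of 0.0777 and 0.089, nor with edgeR.

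Sox2 in the KO went from 18569, 18875 and 19843 at day 5 to 9972, 9792 and 12034 at day 7, a fall of 0.85 ± 0.17 on the log2 scale (adjusted p = 1.97e-06). Klf4 went from 28208, 28158 and 30539 to 12592, 12357 and 16717 and fell by 1.06 ± 0.18 (adjusted p = 4.95e-08). Myc went from 23537, 23808 and 26280 to 10525, 10488 and 14139 and fell by 1.07 ± 0.19 (adjusted p = 1.69e-07). Klf4 and Myc were thus 2.09-fold lower at day 7 than at day 5 and Sox2 1.80-fold lower, in a step where 41.5% of genes passed. Replicate 3 was the highest KO library at day 7 for all 4 genes. Over day 3 to day 7 the log2FC in the KO was -0.99 for Sox2, -1.27 for Klf4 and -1.28 for Myc, which passed (largest adjusted p of the 3 = 1.03e-08, background 55%), and 0.04 for Pou5f1, which did not (adjusted p = 0.807).

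The genotypes therefore differed at day 7 in Sox2, Klf4 and Myc and not detectably in Pou5f1. All 3 KO libraries lay below all 3 WT libraries for Sox2, Klf4 and Myc, which share the cassette transcript. As at day 3, the share of all genes without such overlap was not counted. Klf4 was 1.61-fold lower in the KO, with a log2FC of -0.68 ± 0.18 and a 95% interval of -1.04 to -0.33 (DESeq2 adjusted p = 0.00118). Myc was 1.60-fold lower, -0.68 ± 0.19, with an interval of -1.05 to -0.31 (adjusted p = 0.00212). Sox2 was 1.42-fold lower, -0.51 ± 0.17, with an interval of -0.83 to -0.18 (adjusted p = 0.0101). For Pou5f1 the log2FC was -0.03 ± 0.11 and its interval was -0.24 to 0.17 (adjusted p = 0.857), and the libraries overlapped. Of all genes tested 29.4% passed at day 7. The Klf4 and Myc calls held without any 1 library. That of Sox2 was lost without WT replicate 1, WT replicate 3, KO replicate 1 or KO replicate 2, with log2FC of -0.47 to -0.46 and adjusted p of 0.0544 to 0.0633.

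At day 5 no factor passed between genotypes. The log2FC was 0.22 ± 0.11 for Pou5f1 (adjusted p = 0.235), where 2 of the 3 KO libraries exceeded all WT libraries, and -0.05 to -0.04 for the other 3, whose libraries overlapped. None passed with edgeR either, 1 had an unadjusted p under 0.05, and 7.15% of all genes passed. The KO effect at day 7 minus that at day 5 was -0.46 ± 0.23 for Sox2, -0.64 ± 0.26 for Klf4, -0.64 ± 0.27 for Myc and -0.25 ± 0.15 for Pou5f1. It passed for 0 of 4 (edgeR 0, unadjusted p under 0.05 for 3, lowest adjusted p = 0.127, background 5.84%). Without KO replicate 3 of day 7 the Klf4 difference was -0.79 and passed (adjusted p = 0.0458). Nor did the KO effects at day 7 and day 3 differ past the threshold, in a contrast added after the values were seen (0 of 4, edgeR 0, unadjusted p under 0.05 for 2, lowest adjusted p = 0.139, background 13%). Between day 3 and day 5 the KO effects differed for none of the 4 (edgeR 0, unadjusted p under 0.05 for 0, background 0.064%). A KO effect particular to day 7 is therefore not shown.

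**Figure D2:**
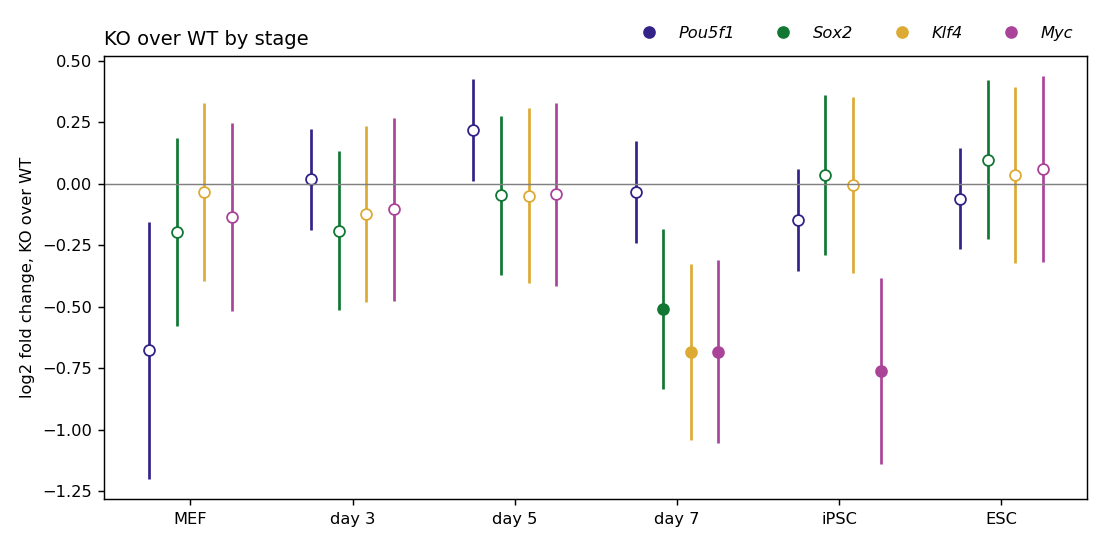
Log2 fold change of KO over WT for each factor at each stage, with 95% intervals (1.96 SE) from the fit of all 36 libraries. Filled points passed FDR < 0.05 and open points did not, and the filled points are Sox2, Klf4 and Myc at day 7 and Myc in iPSCs.

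Markers of the starting and final cells moved with this difference. At day 7 the summed counts of the 12 fibroblast markers, all of them detected, were 14977 to 30245 in KO and 42122 to 50906 in WT libraries, and those of the 8 pluripotency markers, all detected, 28410 to 36920 and 7436 to 11464. Among other markers the 5 neural genes in the table, mostly Tubb3, summed to 5951 to 7172 in KO and 10593 to 11620 in WT, and the 5 keratinocyte genes, mostly Krt14, to 2691 to 4364 and 4603 to 10078. The 5 macrophage genes, mostly Cd68, summed to 482 to 517 in KO and 298 to 391 in WT, and the 6 endothelial genes to 1031 to 1215 and 732 to 1097. Their part in the difference was not tested. The cells had been sorted for mOrange, which is made from the cassette transcript. In bulk samples fewer cells of a type and less RNA per cell cannot be told apart.

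The ratio of 2 members within a library does not depend on scaling between libraries. There was 0.844 ± 0.0095 count of Myc per count of Klf4 over the 18 libraries of day 3, day 5 and day 7 (mean ± SD), with a range of 0.830 to 0.864. At day 7 this ratio differed between genotypes by less than the spread of the libraries, at 0.843 ± 0.014 in WT and 0.844 ± 0.0067 in KO, although the counts of both genes were 1.6-fold apart. Outside these days it was different, with 0.630 ± 0.0283 in WT MEFs and 0.295 ± 0.0064 in WT ESCs.

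Sox2 kept a nearly constant ratio to Klf4 in WT cells, with means of 0.657 at day 3, 0.658 at day 5 and 0.675 at day 7. In KO cells it was 0.627 at day 3 and 0.660 at day 5. At day 7 the KO libraries had 0.792, 0.792 and 0.720 count of Sox2 per count of Klf4 and the WT libraries 0.693, 0.666 and 0.667. The KO values were all above those of WT and of every earlier library.

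Pou5f1 moved away from Klf4 from day 3 on. WT libraries had 1.16 ± 0.0354 count of Pou5f1 per count of Klf4 at day 3, 1.57 ± 0.148 at day 5 and 2.03 ± 0.184 at day 7. KO libraries had 1.28 ± 0.103, 1.87 ± 0.112 and 3.20 ± 0.409. By library these were 1.41, 1.71 and 1.59 (WT) and 1.75, 1.97 and 1.89 (KO) at day 5, and 1.87, 2.23 and 1.98 (WT) and 3.17, 3.62 and 2.81 (KO) at day 7. The genotypes overlapped at day 3 and not at day 5 or day 7. At day 3 the KO ratio was above the WT ratio of the same replicate number in 3 of 3 pairs (1.17 and 1.12, 1.27 and 1.19, 1.38 and 1.17). The data do not settle whether the numbers pair the libraries at day 3, since WT replicate 2 correlated best with KO replicate 3. With 3 libraries a group, an exact permutation test of a single ratio cannot reach 0.05, and none was made.

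**Figure D3:**
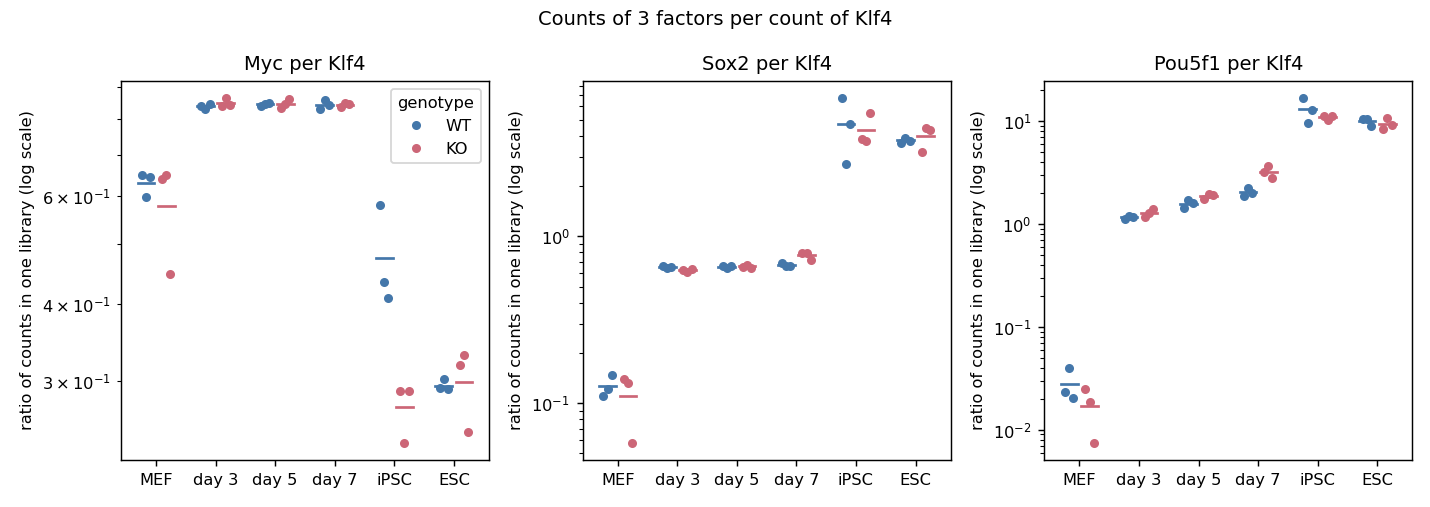
Counts of Myc, Sox2 and Pou5f1 per count of Klf4 in the same library (log axes) by stage, WT in blue and KO in red, with a bar at the mean of 3. From day 3 to day 7 the ratio of Myc stays between 0.830 and 0.864 while that of Pou5f1 goes from 1.16 to 2.03 in WT and from 1.28 to 3.20 in KO.

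In iPSCs, grown without doxycycline, Klf4 and Myc were low and Pou5f1 and Sox2 stayed high. Pou5f1 had 32728, 44550 and 37292 normalised counts in WT and 37832, 34921 and 30729 in KO clones. Sox2 had 13215, 12621 and 13734 in WT and 12948, 12521 and 15067 in KO. Klf4 had 1969, 4672 and 2923 in WT clones and 3379, 3379 and 2765 in KO clones. Myc had 1143, 2030 and 1198 in WT and 975, 805 and 798 in KO. WT clone 2 was the highest for Pou5f1, Klf4 and Myc, by 2.37-fold over clone 1 for Klf4.

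From WT day 7 to WT iPSCs Klf4 fell 7.0-fold and Myc 12.9-fold (adjusted p = 1.85e-52 and 9.18e-82). In the KO, from lower day 7 levels, the falls were 4.38-fold and 13.6-fold (adjusted p = 1.65e-30 and 3.69e-84). Pou5f1 fell by 0.23 ± 0.11 on the log2 scale in WT (adjusted p = 0.0362) and 0.35 ± 0.11 in KO (adjusted p = 0.00184). The WT change was lost without WT replicate 3 of day 7 or WT clone 1 or 3, with adjusted p of 0.095 to 0.253. It was also lost with edgeR (adjusted p = 0.171), TMM size factors (0.0872), the replicate block (0.0893) and the fit of only the groups compared (0.0903). Sox2 did not change past the threshold in WT (-0.19, adjusted p = 0.285) and rose by 0.35 ± 0.17 in KO (adjusted p = 0.0496), a call that was lost with edgeR, both other scalings and without day 7 KO replicate 1 or 2 or KO clone 1 or 3. The background was 73.5% of genes in WT and 68.9% in KO.

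Of the 4 factors only Myc passed between KO and WT iPSCs. All KO clones lay below all WT clones, though the share of all genes that separate in this way was not counted. The log2FC of Myc was -0.76 ± 0.19 (1.70-fold lower, adjusted p = 0.00144), where 16.3% of genes passed. Without WT clone 2 the log2FC was -0.45 and the adjusted p 0.104. Pou5f1, Sox2 and Klf4 had log2FC of -0.15, 0.03 and -0.01, with 95% intervals of -0.35 to 0.06, -0.29 to 0.36 and -0.36 to 0.35. Counts of Myc per count of Klf4 were 0.580, 0.435 and 0.410 in WT clones and 0.289, 0.238 and 0.289 in KO clones, without overlap. In WT ESCs the same ratio was 0.292, 0.302 and 0.291. The KO effect on Klf4 differed between iPSCs and day 7 by 0.68 ± 0.26 (adjusted p = 0.0413, 1 of 4 members, background 21.9%), and edgeR did not call it. For Myc, lower in the KO at both stages, the difference of the effects was -0.08 ± 0.27 (adjusted p = 0.881).

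In ESCs the levels of all 4 genes lay near those of iPSCs. WT ESC samples had 37886, 37201 and 36031 normalised counts of Pou5f1 and KO ESC samples 37665, 36331 and 32585. Sox2 had 13148, 13735 and 15111 in WT and 14445, 15003 and 15501 in KO. Klf4 had 3642, 3527 and 4041 in WT and 4494, 3389 and 3601 in KO. Myc had 1062, 1066 and 1174 in WT and 1432, 1122 and 891 in KO. The groups overlapped for every gene, with log2FC of KO over WT from -0.06 to 0.10 and the widest interval, that of Myc, from -0.32 to 0.44. None passed (edgeR 0, unadjusted p under 0.05 for 0), against 10.1% of genes. From iPSCs to ESCs none of the 4 passed in WT (edgeR 0, unadjusted p under 0.05 for 1, background 3.2%) or in KO (edgeR 0, unadjusted p under 0.05 for 1, background 6.45%). Without WT iPSC clone 2 the WT step of Klf4 moved from 0.23 to 0.61 and passed (adjusted p = 0.00656). Myc went from iPSC to ESC by -0.40 in WT and by 0.42 in KO. Without WT iPSC clone 2 the WT step was -0.089, and without KO ESC replicate 1 the KO step was 0.23. The difference between the KO effects at these stages, 0.82 ± 0.27, missed the threshold (adjusted p = 0.0964) but passed without WT iPSC clone 1 or 3 or KO ESC replicate 3 (0.94 to 0.97, adjusted p of 0.0288 to 0.0352). With all libraries none of the 4 passed (edgeR 0, unadjusted p under 0.05 for 1, background 1.47%).

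**Figure D4:**
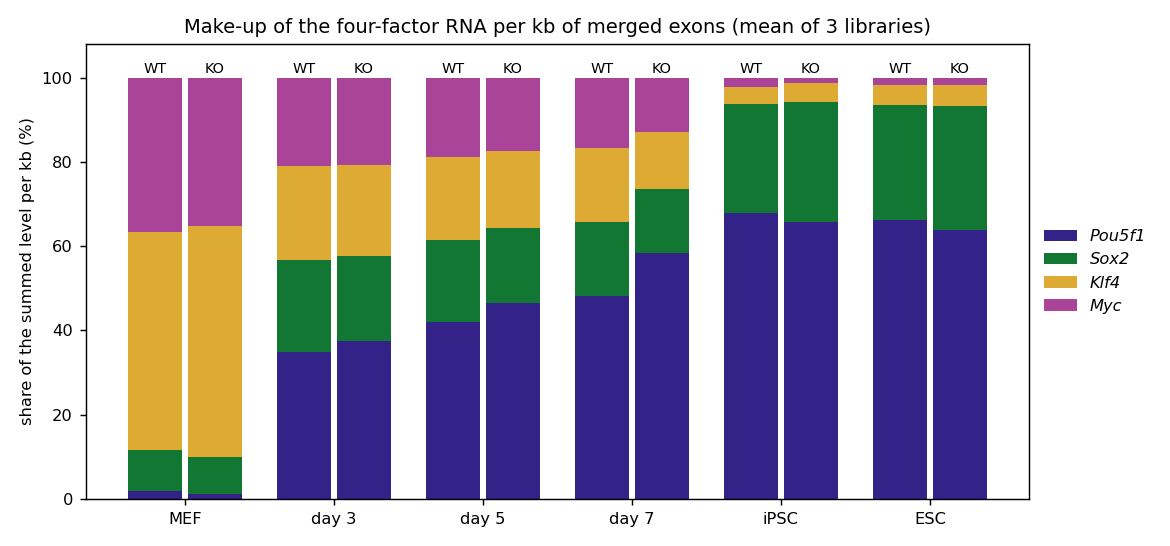
Share (%) of each factor in the summed level of the 4 per kb of merged exons, as the mean of 3 libraries, WT left and KO right at each stage. The share of Pou5f1 rises from 1.96% in WT MEFs to 35.0% at day 3, 48.2% at day 7 and 66.2% in ESCs, and at day 7 it is 58.3% in the KO.

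Per kb, the make-up of the set at day 7 in the KO lay between that of WT day 7 and that of pluripotent cells. Pou5f1 was 55.8 to 61.1% of the summed level in KO libraries at day 7, 46.1 to 50.6% in WT at day 7 and 63.8 to 67.9% in WT ESCs. Merged exons include bases that the cassette does not hold. Per kb of coding sequence the mean share of Pou5f1 was 58.8% in KO and 48.7% in WT at day 7 and 66.1% in WT ESCs. Klf4 was 13.5 ± 1.11% in KO and 17.6 ± 0.755% in WT at day 7, against 4.92 ± 0.317% in WT ESCs. Sox2 was the exception, with 15.4 ± 0.655% in KO and 17.6 ± 1.08% in WT at day 7 and 27.3 ± 1.77% in WT ESCs. In WT ESCs the levels per kb were 16477 ± 417 for Pou5f1, 6805 ± 490 for Sox2, 1226 ± 88.6 for Klf4 and 405 ± 23.4 for Myc, each step larger than the spread. Sox2 and Klf4 could not be ordered in WT at day 7, with 7332 ± 908 and 7319 ± 843.

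Transcripts next to the endogenous genes, which the cassette does not contain, were compared with the factors. Sox2ot had 0 to 13 normalised counts in all MEF and reprogramming libraries and 38 to 81 in iPSCs and ESCs. It was named after its values were seen. It rose by 3.04 on the log2 scale from day 7 to iPSCs in WT (adjusted p = 5.82e-10) and by 4.07 in KO (adjusted p = 1.86e-13). The nearest genes with a row on either side of Sox2, Gm42692 and the long non-coding RNA gene Gm38509, had 0 to 4 counts through day 7 and up to 14 and 132 in pluripotent cells. Gm38509 was 2.19 higher in KO than in WT iPSCs on the log2 scale (adjusted p = 0.00105), with 73 to 132 against 11 to 35 counts, while Sox2 itself overlapped.

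At the Pou5f1 locus the antisense Gm19553 had 1 to 8 counts in MEFs and 52 to 193 from day 3 to day 7. It rose with Pou5f1 at day 3 (log2FC 4.42 in WT, adjusted p = 4.14e-14), but whether its reads belong to Pou5f1 cannot be told, since the use of strand in the counting is not given in the sources used here. Tcf19, 1.96 kb away and a regulator of cell proliferation, went the other way and fell by 1.04 from MEFs to day 3 in WT (adjusted p = 9.2e-20). Pvt1, the long non-coding RNA gene 47.6 kb beyond Myc, had 461 to 547 counts in WT MEFs and 129 to 184 at day 3 and fell by 1.69 on the log2 scale (adjusted p = 2.08e-19), while Myc rose. It did not pass between KO and WT at any stage. On the other side of Myc the non-coding gene Gm49497 had no count in MEFs, 15 to 32 at day 3, 2 to 13 at day 7 and at most 2 in iPSCs and ESCs. Near Klf4, Rad23b, which recognises damaged DNA, lies 135 kb away and had 7329 to 9789 counts in all libraries up to day 7.

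During reprogramming, at each of the 3 days, the list of OCT4 and SOX2 targets held more genes past the test than any other list. This list, like the others, was written with earlier results of these data known, so its rank is not independent support. Of 18 listed pluripotency genes 17 had a row. At day 7 16 of them were higher in the KO and 0 lower, with a median log2FC of 1.71 against -0.05 over all genes tested, of which 29.4% passed in either direction. Lefty1, named here because it alone did not pass, had a log2FC of -0.63 (adjusted p = 0.269). At day 5 13 were higher and 0 lower, where 7.15% of all genes passed, and at day 3 3 were higher and 1 lower, where 0.493% passed. Dppa4, a chromatin-associated pluripotency protein, had 35 to 79 counts in WT and 374 to 571 in KO at day 7 (log2FC 3.07 ± 0.20). Zfp42, a marker of naive pluripotency, had 962 to 1483 and 3420 to 4252, and Esrrb, an orphan nuclear receptor that sustains self-renewal, 1830 to 2120 and 3826 to 4823. Fgf4, a growth factor gene with a joint OCT4-SOX2 enhancer, had 29 to 60 in WT and 182 to 364 in KO at day 5 (log2FC 2.70 ± 0.23). Utf1, another gene with such an enhancer, was lower in the KO at day 3, with 56 to 110 against 126 to 227 counts (log2FC -1.13 ± 0.27, DESeq2 adjusted p = 0.0114). With edgeR 0 genes of this list were lower at day 3, so Utf1 was not called. At day 7 Utf1 was higher in the KO, with 1053 to 1353 against 180 to 420. In iPSCs, with 16.3% of all genes past the test, 2 of the 17 were higher and 1 lower, and in ESCs and MEFs 0 passed with DESeq2 or edgeR.

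Relatives of the 4 factors are described at day 7, where 29.4% of all genes tested passed. Among 15 other KLF genes with a row, 14 were tested and 6 were higher and 2 lower in the KO at day 7, with a median log2FC of -0.01 against -0.05 over all genes. Klf2 and Klf5, which overlap with Klf4 in ESC self-renewal, had 100 to 170 and 393 to 452 counts in WT and 379 to 522 and 1007 to 1247 in KO, log2FC of 1.67 ± 0.26 and 1.37 ± 0.10 (adjusted p = 5.68e-09 and 2.03e-36), in the libraries in which Klf4 was lower. Klf15 went from 9 to 11 counts in WT to 39 to 71 in KO, and Klf16 was lower, with 2602 to 2941 against 3225 to 3920.

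In the MYC-MAX network of 12 genes, 2 were higher and 1 lower at day 7, a share near the 29.4% of all genes. Mycn, the ESC paralogue of Myc, had 188 to 268 counts in WT and 508 to 675 in KO (log2FC 1.49 ± 0.23, adjusted p = 6.7e-09), opposite in direction to Myc. Mxd4, a MAX partner that represses, was lower (-0.56 ± 0.16, adjusted p = 0.00407). In iPSCs Mycn was lower in the KO, with 2580 to 4259 against 3515 to 6845 (log2FC -0.70 ± 0.23, adjusted p = 0.017), the same direction as Myc.

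Of 17 other SOX genes with a row, 2 were higher and 7 lower in the KO at day 7, with a median log2FC of -0.62 against -0.05 over all genes, of which 29.4% passed. Sox4 had 1261 to 1390 counts in WT and 580 to 841 in KO and Sox11, like Sox4 a SoxC gene, 341 to 477 and 101 to 204 (log2FC -0.86 ± 0.13 and -1.44 ± 0.24, adjusted p = 3.39e-09 and 3.2e-08). Both were also lower at day 5. Sox6 and Sox12 were lower by 1.73 and 0.84 at day 7. Of 10 other POU genes with a row 2 were higher and 2 lower at day 7, against the same 29.4%. Pou2f1, the widely expressed OCT1, had 2507 to 2735 counts in WT and 3265 to 3692 in KO (log2FC 0.41 ± 0.09, adjusted p = 7.19e-05).

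MYC target genes were described beside Myc. Of 20 listed growth and ribosome genes 7 were lower and 1 higher in the KO at day 7, with a median log2FC of -0.17 against -0.05 over all genes, of which 29.4% passed, and 8 were lower and 0 higher in iPSCs, with a median of -0.16 against 0.02 over all genes, of which 16.3% passed. At day 7 Ncl, the nucleolar protein nucleolin, had 63850 to 67847 counts in WT and 51752 to 56109 in KO (log2FC -0.28 ± 0.06), and Bop1, a ribosome maturation factor, 4733 to 5046 and 3566 to 3836 (-0.40 ± 0.08). Ccnd2, a D-type cyclin that fibroblasts also make, had 9381 to 10630 and 5023 to 6212. In iPSCs Nop16, another ribosome assembly gene, had 1295 to 2070 in WT and 1177 to 1261 in KO (-0.54 ± 0.10, adjusted p = 1.52e-05). In ESCs, where Myc did not pass, 3 of the 20 were lower and 1 higher, where 10.1% of all genes passed.

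Epithelial genes, raised early in reprogramming, passed for few members of their list. Of 12 genes 3 were higher and 1 lower in the KO at day 7, a share near the 29.4% of all genes. Krt18, a simple epithelial keratin, had 458 to 616 counts in WT and 1716 to 2322 in KO (log2FC 1.92 ± 0.51), and the tight junction gene Cldn3 1357 to 1755 and 607 to 795 (-1.14 ± 0.33). At day 5 1 was higher and 0 lower, near the background of 7.15%.

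The genes with the most similar pattern over the 12 groups differed between the members. Likeness was the root-mean-square difference of log2 group means (normalised count plus 1, each gene centred) over 16742 genes. Cdh1, the epithelial cadherin, was closest to Pou5f1 (0.50), with at most 11 counts in MEFs, 5744 to 7356 at day 3 and 14927 to 20560 at day 5 and day 7. Glt1d1 and 2310043M15Rik came next (0.61 and 0.72). Closest to Sox2 were Nup210, a nuclear pore component (0.28), Slc35f2 (0.44) and Gm867 (0.47). Pcolce2, an enhancer of procollagen processing (0.14), Larp1b (0.23) and Cisd3 (0.30) were closest to Klf4. Pcolce2 had 267 to 341 counts in MEFs, 7842 to 8347 in WT at day 3 and 4018 to 4216 in WT and 2917 to 3097 in KO at day 7. Closest to Myc were Ccdc116 (0.27), Uchl1, a ubiquitin hydrolase (0.31), and Gm48640 (0.31). Uchl1 had 13408 to 15308 counts in WT and 6290 to 7855 in KO at day 7. Klf4 and Myc were 0.64 apart, Sox2 and Pou5f1 1.44, and Pou5f1 and Myc 3.29. These values describe 12 group means that share their libraries.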

How the data were processed

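RNA-seq libraries (NEB Ultra II kit, single-end reads of 75 bases) were processed by the authors with Cutadapt, STAR on GRCm38 and Rsubread. The deposited table holds raw counts per gene for each library, and a further deposited table holds the same counts divided by DESeq2 size factors (normalised signal), which were recomputed here to within 1.5e-09. The annotation release and the strand setting of the counting are not given in the sources used here. A log-transformed matrix adjusted for batch was not used, and preparation batches are not in the labels.

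DESeq2 1.42.0 was fitted to the counts of all 36 libraries with 1 term per group, without shrinkage, and Wald tests were adjusted over all genes by the Benjamini-Hochberg method (FDR < 0.05). Cassette and endogenous reads were not separated. Alternatives were edgeR 4.0.16 (quasi-likelihood, TMM), TMM or total-count size factors, a filter of 10 counts in 3 libraries, fits of only the groups compared, a replicate block and leaving out each library. The tests were tried on simulated data. Positions, lengths and neighbours came from GENCODE M21, and promoters from RefSeq, where 3 of the 4 members matched and Myc did not. The members and lists were chosen with earlier results of these data known. Named genes were the members, Zfp266, up to 4 genes per list and comparison with the lowest FDR past 0.05, the 3 genes most like each member (highest group mean of at least 50), and the nearest genes on each side, of which 1 is not reported here.

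Depth was 19224103 to 39610939 counts per library. Replicates differed by more than sampling noise in all 36 pairs (chi-square per gene of 3.37 to 119.9). The paper describes the reprogramming RNA-seq data as 3 independent samples. Separate cultures are not stated for MEF and reprogramming replicates, whose p-values may measure technical spread only. Deviations of WT and KO libraries with the same number correlated above 0.1 in all 3 pairs at day 3 and day 7. The values were 0.456, 0.101 and 0.272 at day 3 and 0.339, 0.172 and 0.392 at day 7. At no other stage did all pairs exceed 0.1. At day 3, however, WT replicate 2 correlated best with KO replicate 3. At day 7, and at day 5 (0.268, 0.09 and 0.221), every WT library was closest to the KO library of its own number. The data therefore do not settle the pairing by number at day 3.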

Additional observations from a re-analysis of the deposited data

Results flagged for a closer look

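The KO effect on Klf4 differed between iPSCs and day 7 in the test of the difference itself, by 0.68 ± 0.26 on the log2 scale (DESeq2 adjusted p = 0.0413). Klf4 was lower in the KO at day 7 in all 3 libraries and overlapped between genotypes in iPSCs. edgeR gave 0.63 and did not call it (adjusted p = 0.0765), nor did DESeq2 with TMM (0.0646) or total-count size factors (0.0533), and the call was also lost without any 1 of 8 of the 12 libraries, with values from 0.43 to 1.06 over all 12.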

How the results depend on the processing

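Of 96 results, 91 kept their direction and side of the threshold with edgeR, 91 with TMM size factors, 92 with total-count size factors, 92 with the replicate block and 96 with the low-count filter, as did 60 of 72 fitted on only the groups compared and 646 of 720 values without 1 library. The causes were not tested. No scaling moved the median of all genes by more than 0.0891.

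With edgeR, Pou5f1 day 7 to iPSC in WT (-0.19), Pou5f1 day 5 to day 7 in KO (-0.30), Sox2 day 7 to iPSC in KO (0.34) and the Klf4 KO effect at iPSC minus day 7 (0.63) lost the call, and the Sox2 KO effect at day 3 minus MEF turned to -0.0032. TMM size factors lost these calls except that of Pou5f1 day 5 to day 7 in KO (-0.19, 0.34 and 0.63), gained Sox2 day 5 to day 7 in WT (-0.42) and turned Sox2 day 3 minus MEF to -0.0082. Total-count size factors lost Pou5f1 day 5 to day 7 in KO (-0.22), Sox2 day 7 to iPSC in KO (0.30) and Klf4 iPSC minus day 7 (0.64), and turned Pou5f1 KO over WT at day 7 to 0.0025. The replicate block changed no KO over WT call at day 3 or day 7. It turned Klf4 KO over WT in iPSCs to 0.074 and Klf4 ESC minus iPSC to -0.047, and lost Pou5f1 day 7 to iPSC in WT (-0.24) and Sox2 day 7 to iPSC in KO (0.35). Fits of only the groups compared gained Sox2 KO over WT at day 3 (-0.19), Pou5f1 at day 5 (0.23), Sox2, Klf4 and Myc day 3 to day 5 in WT (-0.27, -0.28 and -0.27) and day 5 to day 7 in WT (-0.40, -0.43 and -0.44), and Klf4 and Myc day 3 to day 5 in KO (both -0.21). They lost Pou5f1 day 7 to iPSC in WT (-0.26) and turned Pou5f1 KO over WT at day 7 to 0.0060.

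Without 1 library at a time, KO over WT ranged for Pou5f1 from -0.042 to 0.048 at day 3 and -0.086 to 0.028 at day 7. For Sox2 it ranged from -0.43 to 0.15 in MEFs, -0.17 to 0.046 at day 5, -0.61 to -0.46 at day 7 and -0.050 to 0.088 in iPSCs. For Klf4 it ranged from -0.11 to 0.058 in MEFs, -0.16 to 0.034 at day 5, -0.26 to 0.38 in iPSCs and -0.096 to 0.11 in ESCs. For Myc it ranged from -0.30 to 0.089 in MEFs, -0.15 to 0.035 at day 5, -0.91 to -0.45 in iPSCs and -0.13 to 0.21 in ESCs. Steps ranged for Pou5f1 from 0.29 to 0.40 (day 3 to day 5, KO), -0.015 to 0.098 (day 3 to day 7, KO), -0.37 to -0.24 (day 5 to day 7, KO), -0.36 to -0.13 (day 7 to iPSC, WT), -0.14 to 0.081 (iPSC to ESC, WT) and -0.033 to 0.12 (iPSC to ESC, KO). They ranged for Sox2 from -0.51 to -0.29 (day 5 to day 7, WT) and 0.26 to 0.45 (day 7 to iPSC, KO), and for Klf4 from -0.53 to -0.33 (day 5 to day 7, WT) and -0.022 to 0.61 (iPSC to ESC, WT). Differences of KO effects ranged for day 3 minus MEF from -0.34 to 0.24 (Sox2) and -0.19 to 0.20 (Myc), and for day 5 minus day 3 from -0.032 to 0.16 (Klf4) and -0.045 to 0.14 (Myc). Those of day 7 ranged from -0.10 to 0.011 (Pou5f1, minus day 3) and -0.79 to -0.53 (Klf4, minus day 5). Those of iPSC minus day 7 ranged from -0.21 to 0.012 (Pou5f1), 0.46 to 0.64 (Sox2), 0.43 to 1.06 (Klf4) and -0.23 to 0.23 (Myc). Those of ESC minus iPSC ranged from -0.039 to 0.19 (Pou5f1), -0.34 to 0.29 (Klf4) and 0.51 to 0.97 (Myc).

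With edgeR the MYC targets lower in the KO at day 7 were 4 and not 7, and the pluripotency genes at day 3 were 1 higher and 0 lower and not 3 and 1. No other list count moved by more than 1 gene. SOX genes at day 7 were 3 higher and 6 lower and not 2 and 7. Epithelial genes at day 5 were 0 higher and 1 lower and not 1 and 0. MYC targets in ESCs were 0 higher and 2 lower and not 1 and 3. With a pseudocount of 10 and a minimum of 200, 1, 1, 2 and 2 of the 3 genes most like Pou5f1, Sox2, Klf4 and Myc were shared.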
